A study of Mus musculus with 80 samples.

Results

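The middle CD150 bins of old hematopoietic stem cells (HSCs), G2 and G3, were compared with both extreme bins, G1 and G4, in 12 bulk RNA-seq libraries of the 80 samples of the series. HSCs were sorted from the bone marrow of old male C57BL/6 mice (22 to 24 months in the methods text, with 20 months given as the youngest age elsewhere in the study) as CD150+ CD34- CD48- cells among those that carry Sca-1 and c-Kit, after beads had removed cells carrying lineage antigens. Each sort was divided by CD150 level into 4 bins of 25% of the cells each, from G1 (lowest) to G4 (highest). The titles name the same 3 mice in every bin, so the 6 middle libraries (G2 and G3) and the 6 extreme libraries (G1 and G4) come from the same animals, none of which carried a transgene or a treatment by the labels. For an age readout that the bins did not enter, 3 libraries of old and 3 of young HSCs (2 to 3 months) not divided by CD150 level were used. The number of cells in a library was not given in the sources used here.

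CD150, the product of Slamf1, is a receptor of the SLAM family, whose members bind one another on the surface of blood cells. It is used to purify HSCs, and HSCs with much CD150 are known for a platelet and myeloid bias and for their increase with age, while those with little CD150 give more lymphoid cells. A comparison of the highest with the lowest bin cannot tell a steady gradient from a change that is over by the second bin, or from a state found mainly at intermediate CD150. The difference between the mean of G2 and G3 and the mean of G1 and G4 sets a straight line apart from these shapes. It is 0 for a gene that follows a straight line over the 4 bins. It is above 0 for one that peaks in the middle, levels off after an early rise or falls late. It is below 0 for one with a trough in the middle, a late rise or an early fall. Its sign does not tell the shapes on 1 side of 0 apart, for which the level in each bin is needed. This difference is called the departure here and was measured on log2(FPKM + 1). FPKM is the level of a gene per transcript length and library total. The bins hold equal numbers of cells and were taken as equal steps, which are steps of rank and not of CD150 amount.

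Slamf1 (chromosome 1, 171767131 to 171801184 in GRCm38, the mm10 build of the files) followed the sort in every mouse. Its level was 29.4, 29.2 and 15.2 FPKM in G1 of mice 1, 2 and 3, 51.6, 41.4 and 51.6 in G2, 66.8, 62.8 and 67.9 in G3, and 102.3, 79.3 and 89.0 in G4. Each step was a rise in 3 of 3 mice, and the 4 bins did not overlap. On the FPKM scale the steps were near to equal: G2 stood at 36.0% and G3 at 62.8% of the way from the G1 mean to the G4 mean, where a straight line gives 33.3% and 66.7%. The departure was -0.403 ± 7.32 FPKM (SD of the 3 mice) and, on the log2 scale, 0.28 ± 0.16 (SE; unadjusted p = 0.113 by limma, 95% interval -0.08 to 0.63). The interval on the log2 scale included 0, and on the FPKM scale the value was smaller than the spread between mice. By mouse the log2 value was 0.09, 0.08 and 0.66 in mice 1, 2 and 3. Without G1 of mouse 3 and G2 of mouse 2, which stood apart as described below, it was 0.15 ± 0.08.

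The libraries differed in ways that bear on every value. The FPKM of a library summed to 549860.6 to 698602.8, between 10769 and 11215 genes reached 1 FPKM, and the spacing of the lowest values put the depths within 1.57-fold of each other. G1 of mouse 3 and G2 of mouse 2, one an extreme and the other a middle library, stood apart. Among the other 10 libraries Pearson's r across genes was 0.968 to 0.98, while the median r of these libraries with the rest was 0.912 and 0.941, and each was closest to the other (r = 0.958). Their depths, 0.918 and 1.12 times that of G1 of mouse 1, lay within the range of the others (0.784 to 1.23). Both carried more Actb (1784 and 1503 FPKM, against 424.7 to 699.4). Their part in the results was measured by leaving both out. Counts over the other 10 libraries are given beside those over 12, but for single genes this is done only for some. Values without such a mention are over 12 libraries. Among the markers of HSCs, Procr was at 82.9 to 200.8 FPKM, while markers of other marrow cells were mixed. Of the B cell, T and NK cell, neutrophil and macrophage lists, 8 of 13, 9 of 14, 7 of 16 and 8 of 17 members stayed under 1 FPKM in every library, among them Cd79a, Cd3e, Elane, Mpo, C1qa and Adgre1. Other members were well above it, such as Cd79b (41.7 to 61.5 FPKM), Nkg7 (14.7 to 150.9), Klrb1c (18.6 to 66.2), and, of the platelet list, Pf4 (61.3 to 248.9). The summed levels of the B cell, T and NK cell, neutrophil and macrophage lists overlapped between middle and extremes. They were at 49.5 to 75.2 against 49.5 to 62.9 FPKM for B cells, 86.3 to 121.9 against 80.0 to 194.8 for T and NK cells, 586.8 to 804.4 against 571.8 to 804.8 for neutrophils and 501.2 to 567.1 against 481.9 to 584.4 for macrophages, and their part in the results was not tested. Bulk values cannot tell fewer cells of a type from less RNA per cell.

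No gene passed the test for a departure. Of 11673 genes tested by limma with the mouse as block, 0 (0%) were higher and 0 (0%) lower in the middle bins at an adjusted p under 0.05, and the lowest adjusted p was 1.0. At an unadjusted p under 0.05, 142 genes (1.22%) were higher and 95 (0.814%) lower, a split that turned to 103 higher and 138 lower with quantile normalization. Without that normalization both directions together held 237 genes (2.03%), less than the share of 0.05 that this threshold gives when no gene departs. The p-values over 12 libraries thus ran high, and 865 genes were under this threshold over the 10 libraries. The straight-line term over G1 to G4, fitted to the same libraries, had 1156 genes (9.9%) at that unadjusted threshold and 26 calls (0.223%), 20 rising and 6 falling with CD150. The third independent shape of 4 points, the cubic term (G2 and G3 departing from a line in opposite directions), gave 0 calls (0%) and 169 genes at an unadjusted p under 0.05, and the tests of G2 alone and of G3 alone against the mean of the extremes gave 0 calls each, with 242 genes at an unadjusted p under 0.05 for each. A straight line does not give 0 in these single-bin tests, since it puts G2 and G3 at 33.3% and 66.7% of the way. Over the 10 libraries there were again 0 departures called in either direction, with 420 genes (3.6%) higher and 445 (3.81%) lower at an unadjusted p under 0.05 and a lowest adjusted p of 0.257, whereas the straight-line calls rose to 192 (1.64%), 116 rising and 76 falling, which contain all 26. Leaving out 1 library at a time gave between 2 (without G4 of mouse 2 or of mouse 3) and 41 (without G2 of mouse 2) straight-line calls and 0 departures. Replacing the equal steps by each library's own Slamf1 level also gave 0 departures in either direction.

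The size of departure that the libraries leave room for can be read from the intervals of the single genes. The median SE of the departure was 0.20 on the log2 scale (0.161 over the 10 libraries). For 10850 genes (92.9%) the 95% interval over 12 libraries lay between a 2-fold lower and a 2-fold higher level in the middle. For 6148 genes (52.7%) it lay within 1.5-fold. These are intervals for 1 gene at a time and on FPKM + 1, where the same bound allows a larger change in the level of a low gene. Among the 8540 genes averaging 5 FPKM or more, 95.7% had an interval within 2-fold. The intervals leave room for departures within these bounds. Departures with a low unadjusted p could also go uncalled, since p was adjusted over all genes tested. Brd2, for example, was 1.56-fold higher in the middle on this scale (unadjusted p = 0.00122 by limma) and was not called. A p above the threshold does not show that the middle equals the mean of the extremes. The SD over genes of the departure was 0.20, and that of the straight-line change from G1 to G4 was 0.43 with a median SE of 0.27. By the order of their 4 mean log2 levels, 1223 genes (10.5%) rose at each step, 972 (8.33%) fell at each step, 1685 (14.4%) had both middle bins above both extremes and 1206 (10.3%) had both below. Chance alone favours the last shapes, since more orders of 4 levels give them than give a rise or a fall at each step. These shares therefore do not show that a middle peak or trough is more common than a gradient.

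**Figure D1:**
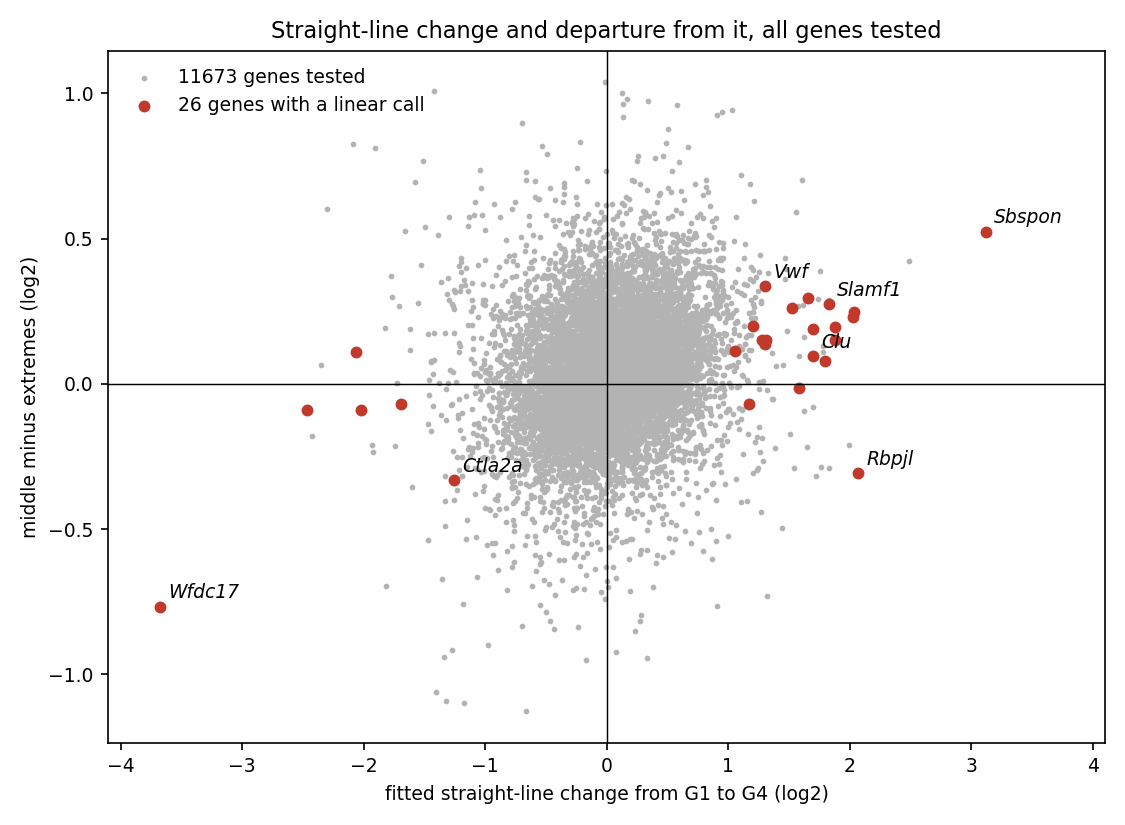
Each point is 1 of the 11673 genes tested, placed by its fitted straight-line change from G1 to G4 (x axis, log2) and by its middle minus extremes (y axis, log2), with the 26 genes called for the straight line in red. The red points spread from Wfdc17 at -3.68 to Sbspon at 3.12 along the x axis, while their departures lie between -0.77 and 0.52 and none was called.

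The genes that follow CD150 most closely show what the middle bins look like along a gradient. Sbspon, which encodes a secreted protein with somatomedin B and thrombospondin domains (chromosome 1), had the largest fitted rise of the 26, 3.12 ± 0.23 on the log2 scale from G1 to G4 (adjusted p = 0.000387). It was at 5.77, 14.1 and 7.92 FPKM in G1 of the 3 mice, 22.7, 29.4 and 31.1 in G2, 54.2, 65.4 and 55.6 in G3, and 92.5, 80.5 and 76.8 in G4. The bins did not overlap and every mouse rose at every step. Its departure was 0.52 ± 0.17 on the log2 scale (unadjusted p = 0.0101) but -3.22 ± 6.5 FPKM (SD of the 3 mice) on the FPKM scale, so the sign depended on the scale.

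Clu encodes clusterin, a secreted chaperone, and lies on chromosome 14 (65968483 to 65981548). It rose from 88.0 ± 15.8 FPKM (SD, n = 3) in G1 to 132.6 ± 21.1 in G2, 211.3 ± 26.6 in G3 and 278.1 ± 19.6 in G4. The departure was 0.09 ± 0.10 on the log2 scale (95% interval -0.13 to 0.32) and -11.1 ± 24.1 FPKM. On both scales the departure of Clu was within its error. The junctional adhesion protein Jam2 was at 23.3 ± 1.49, 31.6 ± 7.63, 38.0 ± 5.83 and 55.2 ± 1.61 FPKM over the bins, with a departure of -0.07 ± 0.14 on the log2 scale.

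Vwf, the platelet-adhesion protein that marks platelet-biased HSCs (chromosome 6, 125552948 to 125686679), rose over the lower bins, with no further rise from G3 to G4. Its level was 28.6, 33.8 and 39.1 FPKM in G1, 54.7, 57.5 and 49.0 in G2, 82.4, 97.4 and 68.0 in G3, and 86.2, 94.0 and 65.9 in G4. The G3 mean lay at 101.1% of the way from G1 to G4 on the FPKM scale and at 100.8% on the log2 scale, and G3 and G4 overlapped. The departure, 0.34 ± 0.13 on the log2 scale (unadjusted p = 0.0247) and 10.2 ± 3.88 FPKM, had the same sign on both scales. Over the 10 libraries it was 0.49 ± 0.08 (adjusted p = 0.257 by limma), and G3 alone against the extremes passed the test there (log2 difference 0.75, adjusted p = 0.0159). With library weights in the fit of all 12, G3 alone passed as well (0.73, adjusted p = 0.0201). In the unweighted fit of the 12 libraries it did not pass. On a straight line G3 of a rising gene also lies above the mean of the extremes. The gradient of Vwf thus enters the G3 test, and its passing does not by itself show a departure.

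Among the genes that fell with CD150, Ctla2a and Wfdc17 had the largest drop of their means between G1 and G2. Ctla2a encodes a cysteine protease inhibitor. It was at 1056, 1440 and 1660 FPKM in G1, 645.0, 1053 and 874.0 in G2, 402.7, 831.3 and 623.6 in G3, and 460.2, 784.4 and 541.3 in G4. In each mouse the largest drop came at the first step, and G3 and G4 overlapped. Its departure was -0.33 ± 0.11 on the log2 scale (unadjusted p = 0.011) and -252 ± 92.2 FPKM. Wfdc17, a small secreted protein with a WAP domain, was at 122.5, 117.4 and 178.1 FPKM in G1, 32.7, 84.3 and 25.7 in G2, 3.80, 36.6 and 12.2 in G3, and 10.4, 15.0 and 8.33 in G4. Only G1 was clear of all the other bins, and the departure of Wfdc17 was -0.77 ± 0.35 on the log2 scale (unadjusted p = 0.0499). By mouse it was -1.56, 0.38 and -1.12 in mice 1, 2 and 3, so mouse 2 went the other way. Over the 10 libraries it was -0.68 ± 0.35 (unadjusted p = 0.0741 by limma).

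**Figure D2:**
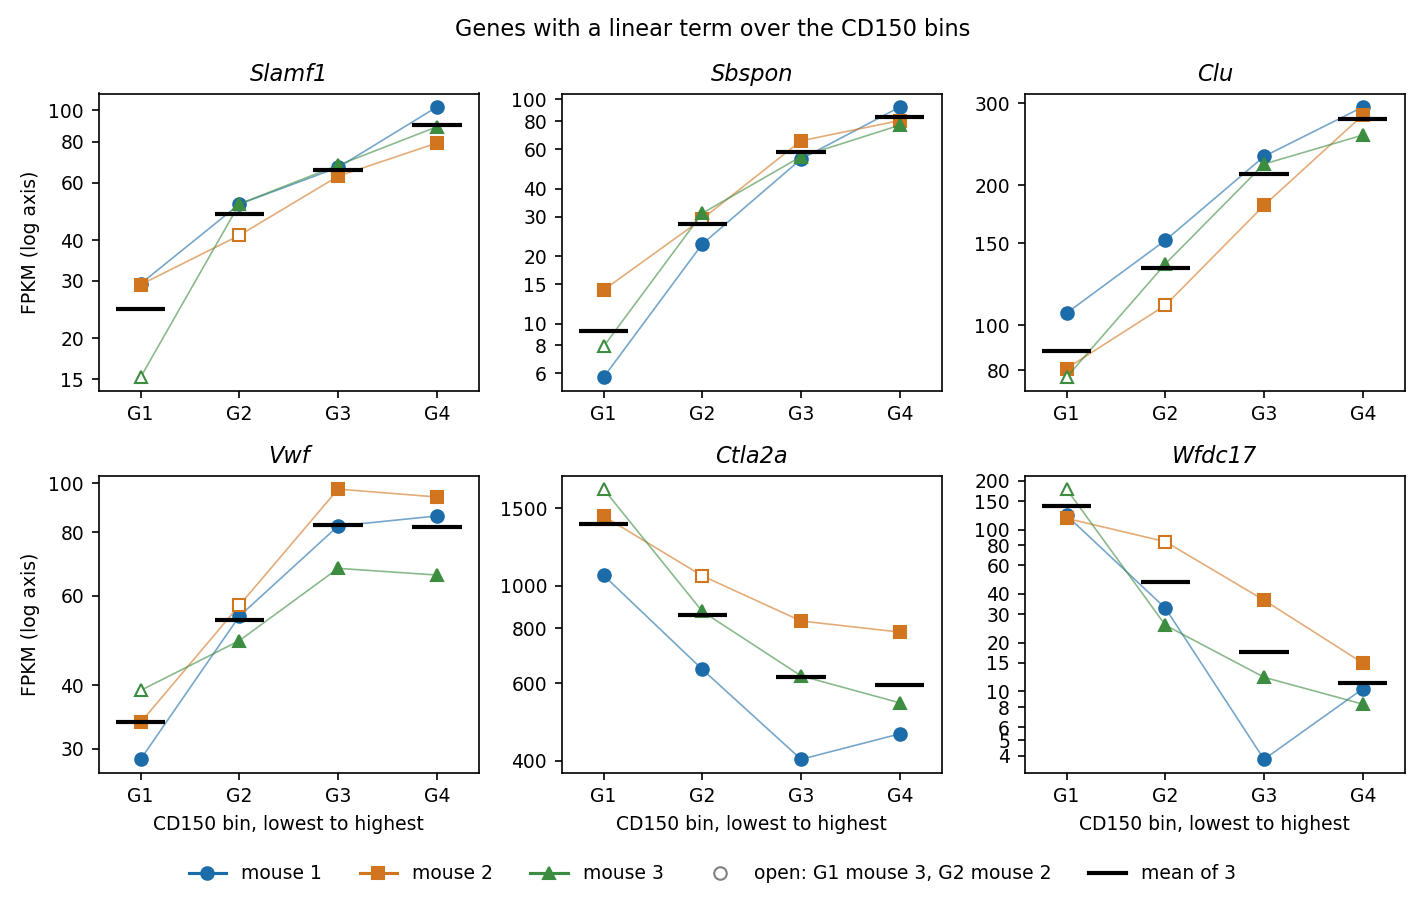
FPKM on a log axis by CD150 bin for 6 genes called for the straight line, with 1 line and symbol per mouse, open symbols for the libraries that stood apart (G1 of mouse 3 and G2 of mouse 2) and black bars for the mean of 3. Slamf1, Sbspon and Clu climb at every step, Vwf has reached its G4 level in G3 (means 82.6 and 82.0 FPKM), and Ctla2a and Wfdc17 are near theirs in G3 (619.2 and 595.3, and 17.6 and 11.2 FPKM).

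Over the 26 genes called for the straight line, the position of the middle between the extremes depended on the scale and on the direction. The order of the scales is arithmetic and not a result about these genes. For a level between the extremes, the log2 scale raises the share of a rising gene and lowers that of a falling gene. For the 20 rising genes, the mean of G2 and G3 reached a median of 61.6% of the G1 to G4 difference on the log2 scale and 50.4% on the FPKM scale, where a straight line gives 50.0%. It was above 50.0% for 17 of 20 genes on the log2 scale and for 10 of 20 on the FPKM scale. For the 6 falling genes the medians were 54.5% on the log2 scale and 72.6% on the FPKM scale, with 5 of 6 and 6 of 6 above 50.0%. Most of these single departures were within their error: for 22 of the 26 genes the 95% interval of the log2 departure included 0, and the exceptions were Sbspon, Ctla2a, Vwf and Wfdc17. For Wfdc17 the interval ended at -0.0004, next to 0, and mouse 2 had the other sign. Over the 10 libraries, the corresponding medians were 55.4% and 47.1% for the 116 rising genes and 51.5% and 58.0% for the 76 falling genes on the log2 and FPKM scales.

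Rbpjl, a paralog of the Notch effector Rbpj, had the lowest share of the 26 on both scales. Rbpjl was at 2.51, 1.20 and 0.974 FPKM in G1 and 2.01, 1.23 and 1.35 in G2, then at 5.21, 5.83 and 3.88 in G3 and 8.80, 7.65 and 8.12 in G4. G1 and G2 overlapped and both upper bins were clear of them, with a departure of -0.31 ± 0.18 (unadjusted p = 0.123). The oxysterol receptor Gpr183 went from 38.0 ± 7.9 and 42.2 ± 8.41 FPKM in G1 and G2 to 74.8 ± 4.91 and 71.1 ± 9.21 in G3 and G4. It had G2 at 16.3% and G3 at 108.7% of the log2 difference, a step between the lower and the upper pair of bins. Such a step leaves the departure near 0 (0.11 ± 0.13). It enters mainly the straight-line term, which was called for Gpr183, and also the cubic term, which did not pass.

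**Figure D3:**
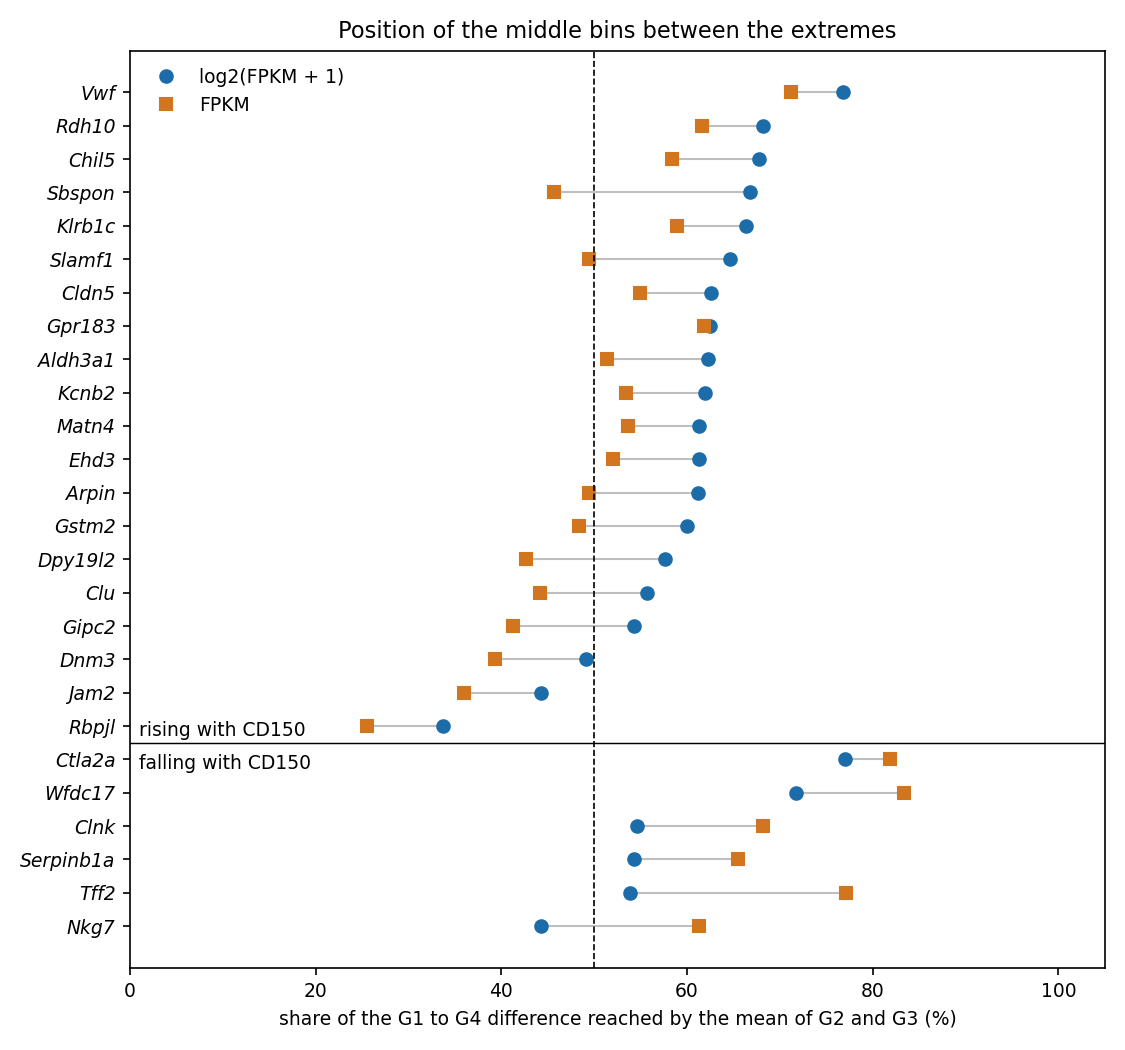
For each of the 26 genes called for the straight line, the share of the G1 to G4 difference (x axis, %) reached by the mean of G2 and G3, on log2(FPKM + 1) (circles) and on FPKM (squares); the dashed line at 50 is a straight line over equal steps. In the 20 rising genes every square lies to the left of its circle, with medians of 50.4% and 61.6%. In the 6 falling genes every square lies to the right, with medians of 72.6% and 54.5%. The log2 scale gives this order by arithmetic for levels between the extremes.

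Since no gene was called, the genes named for the middle itself are the 12 of lowest unadjusted p in each direction among genes whose mean level reached 5 FPKM and the same sign of the difference in all 3 mice (657 genes higher and 634 lower met these conditions). They are values and not calls, each had an adjusted p of 1.0 by limma over 12 libraries, and the common sign over the mice was a condition of the choice. On the log2 scale their departures ran from 0.47 to 0.73 for the 12 higher and from -0.78 to -0.33 for the 12 lower genes. All 24 kept their sign under each alternative on the log2 scale, and 23 of 24 also on the FPKM scale, with Sbspon the exception. The choice by low p and common sign favours a kept sign, so this is no separate support.

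Alcam, the adhesion molecule CD166 (chromosome 16, 52248996 to 52453081), had the next lowest p of the higher genes after Brd2. It was at 16.6, 15.6 and 24.6 FPKM in G1, 25.5, 46.7 and 35.4 in G2, 25.2, 27.1 and 27.1 in G3, and 20.3, 18.4 and 22.5 in G4. All 6 middle libraries lay above all 6 extreme ones. The departure was 0.62 ± 0.16 (1.53-fold on this scale, unadjusted p = 0.00298, 95% interval 0.26 to 0.97), and 0.56 over the 10 libraries (adjusted p = 0.616). No straight-line change was seen (-0.003, adjusted p = 0.997).

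Brd2, a bromodomain protein that binds acetylated histones (chromosome 17, 34112019 to 34122814), had the lowest p of the 24. Its level was 21.2, 15.5 and 9.41 FPKM in G1, 31.4, 31.0 and 18.8 in G2, 26.4, 27.5 and 19.9 in G3, and 17.0, 19.5 and 15.2 in G4. The groups overlapped because mouse 3 was low in every bin, but within each mouse both middle bins were above both extremes. The departure was 0.64 ± 0.15 (1.56-fold, unadjusted p = 0.00122), with 0.58, 0.71 and 0.65 in mice 1, 2 and 3.

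Among the receptors and transporters that were higher, Agtr1a, the angiotensin II receptor, was at 4.68, 2.95 and 2.79 FPKM in G1, 10.3, 4.85 and 6.86 in G2, 11.1, 10.6 and 5.12 in G3, and 5.10, 4.55 and 6.39 in G4 (departure 0.73 ± 0.22, unadjusted p = 0.00727). Its middle and extreme libraries overlapped between 4.85 and 6.39 FPKM. Slc16a7, a monocarboxylate transporter, had a departure of 0.67 ± 0.22, but its libraries were at 5.56 to 10.8 FPKM in G1 and 1.48 to 4.36 in G4, so that its lowest libraries were those of G4. Rasa1, a GTPase-activating protein of Ras, was highest in G2 (24.9, 27.4 and 19.9 FPKM), above G1 (15.2, 17.2 and 15.9) and G4 (11.4, 16.1 and 12.3), with a departure of 0.47 ± 0.14. In G3 Rasa1 was at 19.0, 17.4 and 16.4 FPKM, which overlapped with G1. Against the mean of the extremes, G2 alone was 0.68 and G3 alone 0.26 higher on the log2 scale.

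Genes of proliferation were also among the 12. Kif15, a kinesin of the mitotic spindle, was at 5.64 to 8.42 FPKM in G1, 5.95 to 8.80 in G2, 5.59 to 7.08 in G3 and 1.99 to 3.31 in G4. Its libraries overlapped from G1 to G3, and only those of G4 lay below all others (departure 0.58 ± 0.18). Uhrf1, which binds hemimethylated DNA during replication, was at 6.77, 4.11 and 3.01 FPKM in G1, 2.38 to 3.84 in G4 and 3.67 to 8.22 in the middle, with a departure of 0.63 ± 0.21. G1 overlapped with the middle, and in mouse 1 it was above G3. Other higher genes were Parp10, an ADP-ribosyltransferase (0.56 ± 0.18), Fbxo16, an F-box protein (0.57 ± 0.19), and Ncoa3, a nuclear receptor coactivator (0.53 ± 0.18). All 6 middle libraries lay above the extremes for Ncoa3, which was at 3.11 to 4.24 FPKM in the extremes and 4.76 to 10.0 in the middle.

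**Figure D4:**
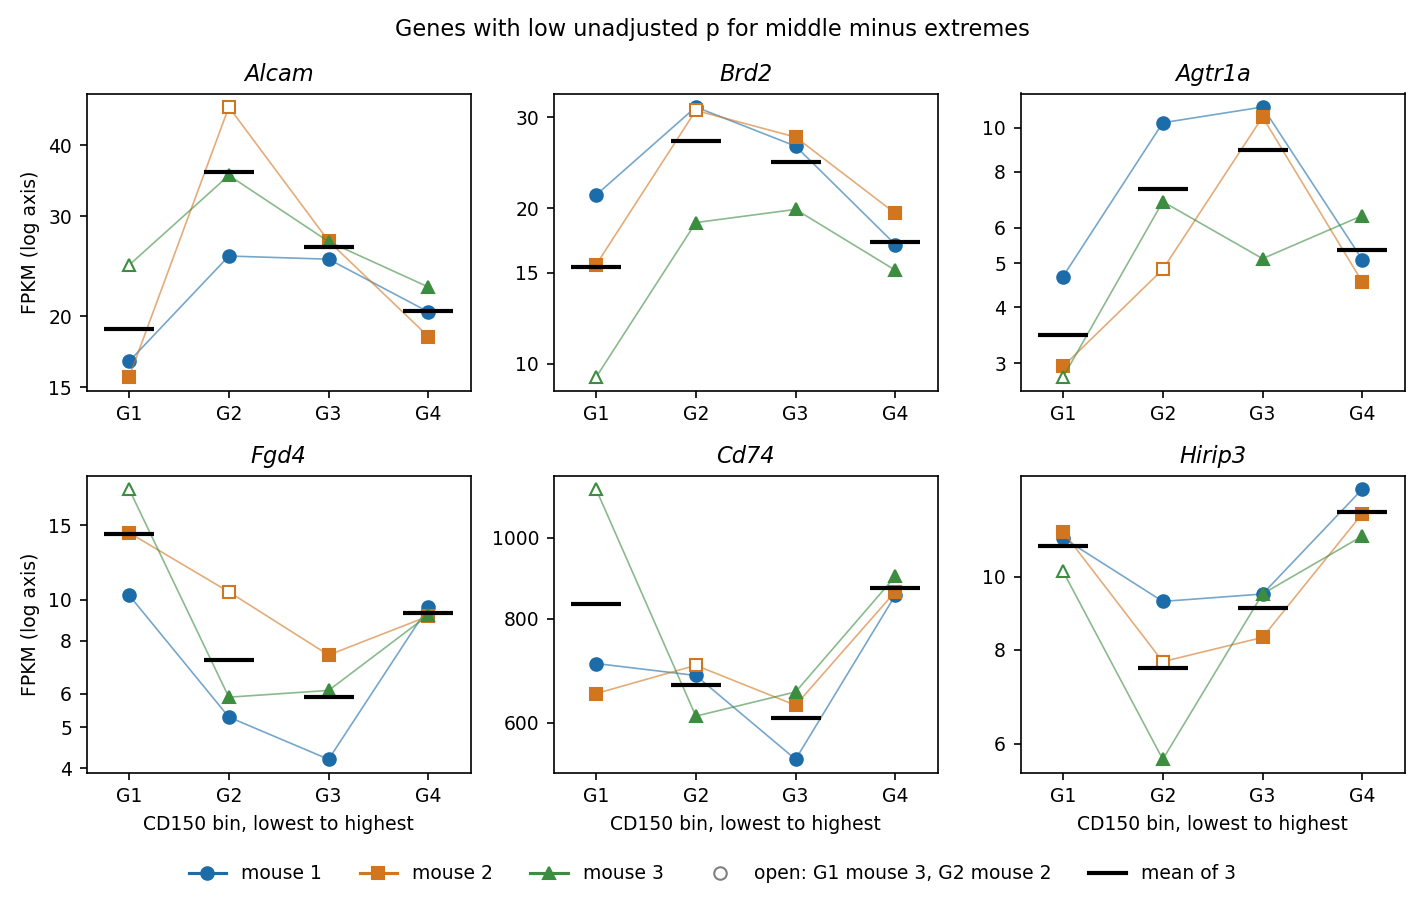
FPKM on a log axis by CD150 bin for 3 genes higher and 3 genes lower in the middle, none of them called, with 1 line and symbol per mouse, open symbols for G1 of mouse 3 and G2 of mouse 2, and black bars for the mean of 3. Alcam is highest in G2 and Brd2 and Agtr1a are highest in G2 or G3, while Fgd4, Cd74 and Hirip3 are lowest in G2 or G3 and return in G4.

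Of the lower genes, Cd74 was the most abundant after Ctla2a. It encodes the invariant chain that escorts MHC class II molecules. Its level was 706.8, 650.6 and 1143 FPKM in G1, 683.9, 703.3 and 611.4 in G2, 542.8, 630.0 and 653.6 in G3, and 853.4, 862.0 and 899.0 in G4. G4 was above every middle library, whereas in G1 the high value came from mouse 3, a library that stood apart. The departure was -0.40 ± 0.13 (0.758-fold, unadjusted p = 0.00929), and -0.30 over the 10 libraries (unadjusted p = 0.00049, adjusted p = 0.616).

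Fgd4, an exchange factor for the GTPase Cdc42 (chromosome 16, 16416910 to 16600534), had the lowest p of the lower genes. It was at 10.3, 14.4 and 18.2 FPKM in G1, 5.29, 10.4 and 5.89 in G2, 4.20, 7.40 and 6.11 in G3, and 9.62, 9.15 and 9.21 in G4. A single middle library, G2 of mouse 2, reached into the range of the extremes. The departure was -0.76 ± 0.19 (0.590-fold, unadjusted p = 0.00208) and the same, -0.76, over the 10 libraries.

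Hirip3, named for its binding to the histone chaperone HIRA, was the gene of the 12 whose middle libraries (5.73 to 9.48 FPKM) all lay below the extremes (10.2 to 13.1 FPKM), with a departure of -0.44 ± 0.15. Lin9, a subunit of the MuvB complex that controls cell-cycle genes, was at 6.29 to 10.9 FPKM in the middle and 9.70 to 23.1 in the extremes (departure -0.68 ± 0.21). Sirt5, a mitochondrial deacylase, was lowest in G2 (10.9 to 12.6 FPKM) and highest in G4 (23.1 to 25.7 FPKM), with G1 (15.3 to 19.7) and G3 (15.4 to 23.4) between them, and a departure of -0.49 ± 0.15. Sertad1, a regulator of CDK4, had 23.6 to 38.4 FPKM in the middle and 35.8 to 54.0 in the extremes (departure -0.38 ± 0.13). The other lower genes were Gm10033 (-0.71 ± 0.19), Ppfibp1, a liprin (-0.71 ± 0.21), Upp2, a uridine phosphorylase (-0.53 ± 0.18), Capsl, a calcyphosine-like protein (-0.60 ± 0.21), Entpd1, the ectonucleotidase CD39 (-0.78 ± 0.28), and Ctla2a.

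**Figure D5:**
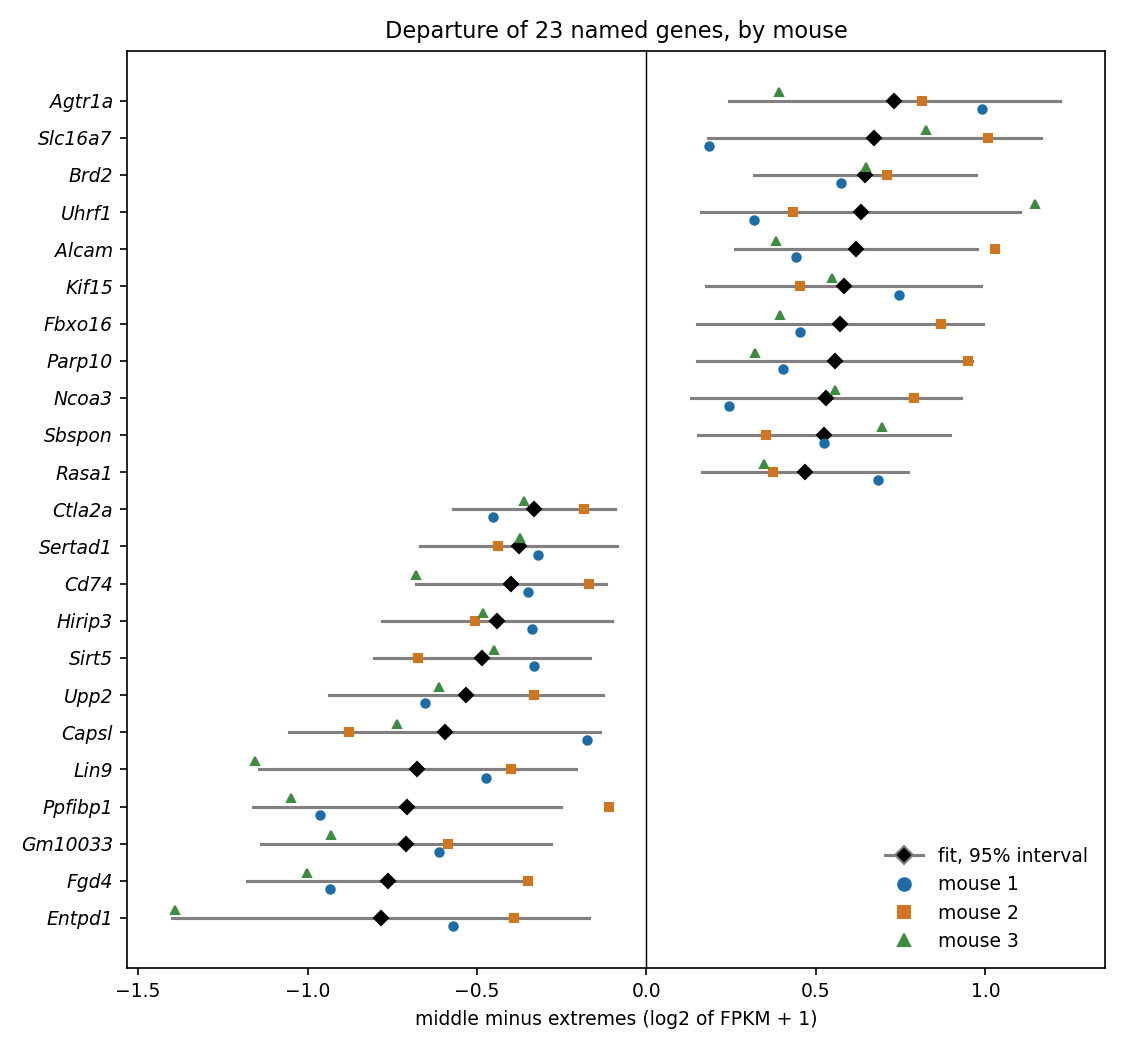
Middle minus extremes (x axis, log2 of FPKM + 1) of 23 of the 24 named genes, with the fitted value (diamond), its 95% interval (line) and the values of the 3 mice (coloured symbols). All 3 mice lie on 1 side of 0 for every gene drawn, which was a condition of the choice. For Brd2 the mice lie close together (0.58 to 0.71), and for Alcam they spread from 0.38 to 1.03.

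Separation of the groups was rare over the whole table. The 6 middle libraries all lay above the 6 extreme ones for 5 genes (0.0428%), which were Alcam, Borcs6, Dnaaf4, Ncoa3 and Zfp69, and all below for 6 genes (0.0514%), which were BC049762, Hirip3, Oma1, Tfb1m, Trmt10b and Utp15. Beyond the 24, these were named after their values were seen. Oma1, a protease of the inner mitochondrial membrane, was at 23.5 to 27.4 FPKM in the middle and 27.6 to 35.2 in the extremes (departure -0.25 ± 0.12), and Tfb1m, a methyltransferase of mitochondrial ribosomal RNA, at 15.4 to 19.1 and 19.3 to 24.2 (-0.24 ± 0.12). BC049762 and Dnaaf4 had means below 1 FPKM over the 12 libraries.

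None of the sort antigens passed the test for a departure. Ly6a (Sca-1) was at 524.2 to 673.7 FPKM in the middle and 604.4 to 1028 in the extremes, the highest value again in G1 of mouse 3 (departure -0.29 ± 0.14, unadjusted p = 0.065, and -0.17 over the 10 libraries, unadjusted p = 0.00458). Kit had 55.4 to 146.8 FPKM in the middle and 51.7 to 162.5 in the extremes, both highest values in the libraries that stood apart, with a departure of 0.15 ± 0.24 (0.31 over the 10 libraries, unadjusted p = 0.0202). Cd34 was at 28.6 to 69.3 FPKM in G1, 33.7 to 59.7 in G2, 31.1 to 37.8 in G3 and 24.8 to 37.9 in G4, and its departure was 0.06 ± 0.21. Cd48 stayed below the filter, with means under 0.3 FPKM in every bin. Procr, the protein C receptor that marks HSCs, had a departure of -0.13 ± 0.14 and Flt3, a receptor of lymphoid-primed progenitors, of -0.19 ± 0.24. Of the 10 genes that the study names with CD150 level, a list the study chose on these samples, 0 were called for a departure. Of these 10, 2 (Kif15 and Sbspon) were higher at an unadjusted p under 0.05 (1.22% of all genes were). Of the 8 candidate surface markers, 0 were at that threshold, with departures from -0.10 (Tm4sf1) to 0.39 (Ramp2). Among the 8 is Clca3a1, which the study cites from another report and does not list as its own candidate.

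Gene lists were described by their members' counts and medians beside those of all genes, whose median departure was 0.02 with 6328 of 11673 (54.2%) above 0. No member of the 51 lists was called. Among ribosomal protein genes, 73 of 81 were below 0, with a median of -0.08 (0.948-fold), and 0 had an unadjusted p under 0.05. This depended on the scaling: with quantile normalization 42 of 81 were below 0 (median -0.004), and with median-of-ratios scaling 77 of 81. Over the 10 libraries 77 of 81 were below 0 and 26 were lower at that threshold, as were 3.81% of all genes. Rps3a1 (-0.19 ± 0.09) and Rpl15 (-0.22 ± 0.13) had the lowest p over 12 libraries. These members move together within a library and are not separate observations. Their mean log2 level, relative to each gene's mean, was -0.30 to 0.12 in the middle libraries, lowest in G2 of mouse 1 and highest in G2 of mouse 2, and -0.09 to 0.23 in the extremes, highest in G1 of mouse 3, so the groups overlapped. The genes of oxidative phosphorylation were similar in sign, with 75 of 90 below 0 and a median of -0.08, but 53 of 90 below 0 with quantile normalization. For both lists the libraries that stood apart were high (medians 0.22 and 0.68 above the other 10 on the log2 scale). At an unadjusted p under 0.05, 2 of the 90 members of oxidative phosphorylation were higher and 0 lower (1.22% and 0.814% of all genes were). Cox7b2, a low cytochrome c oxidase isoform, was at 0.00021 to 4.88 FPKM in the extremes and 0.0158 to 7.17 in the middle (departure 0.92 ± 0.31, unadjusted p = 0.0119). Ndufa10, a subunit of complex I, was at 97.2 to 124.0 FPKM in the extremes and 114.8 to 141.8 in the middle (departure 0.23 ± 0.10, unadjusted p = 0.0351).

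Among the other genes of antigen presentation, H2-Ab1, a class II beta chain, was at 267.9 to 328.0 FPKM in the middle and 308.7 to 365.8 in the extremes (departure -0.20 ± 0.09, unadjusted p = 0.0396), and H2-Aa, an alpha chain, had a departure of -0.16 ± 0.11. Cd74 and H2-Ab1 were the only 2 members of the 18 in the list at an unadjusted p under 0.05 over 12 libraries, against 0.814% of all genes, and the median of the list was 0.03. Over the 10 libraries 4 were lower at that threshold, Cd74, H2-Ab1, B2m and Erap1 (3.81% of all genes were). Tap1 was higher (3.6% of all genes were), and the median of the list was 0.02.

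Of 22 genes of HSC identity, 17 were above 0 with a median of 0.18. Only 1, Vwf, was higher at an unadjusted p under 0.05 (1.22% of all genes were). Over the 10 libraries the median was 0.10, and 8 were higher at that threshold (3.6% of all genes were): Vwf, Kit, Fgd5, Ctnnal1, Tie1, Esam, Robo4 and Prdm16, while Ly6a was lower. Prdm16, a transcription factor that maintains HSCs, was at 7.33, 8.66 and 5.99 FPKM in G1, 18.2, 4.02 and 10.2 in G2, 16.4, 15.3 and 5.62 in G3, and 13.2, 9.29 and 8.47 in G4, a spread in which middle and extremes overlapped. Esam, an adhesion molecule of HSCs, was at 109.5 to 129.0 FPKM in the extremes and 121.4 to 147.7 in the middle once the libraries that stood apart (32.8 and 61.2 FPKM) were set aside. The libraries that stood apart were low in this list, by a median of 0.47 on the log2 scale.

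Cell-cycle genes varied between mice. For 52 genes of the G2/M phase the median straight-line change from G1 to G4 was -0.70 (0 called). The median departure was 0.19, with 41 above 0 but 0 at an unadjusted p under 0.05. Over the 10 libraries the median departure was 0.07, and 5 of the 52 were called falling along the straight line (76 of all 11673 genes were). Their mean relative log2 level ran from 0.74 in G1 to -0.84 in G4 of mouse 1, but was 0.29 in G1 and 0.03 in G4 of mouse 3. For 41 S phase genes the median departure was 0.01, with Uhrf1 and Exo1, a nuclease of DNA repair, higher at an unadjusted p under 0.05 (1.22% of all genes were). Over the 10 libraries 5 of the 41 were called falling along the straight line (76 of all 11673 genes were). Of 70 histone genes 44 were below 0 (median -0.05), 4 were lower at that threshold (0.814% of all genes were), and 10 over the 10 libraries (3.81% of all genes). H2az1, a histone variant, had a departure of -0.25 ± 0.11. Near-identical histone copies share reads, so their single values are uncertain.

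Of 93 public HSC aging genes tested, 12 were called rising along the straight line, of the 20 such genes among all 11673 (median change 0.52 from G1 to G4), and 30 of the 116 over the 10 libraries. For the departure 0 were called, with 6 higher at an unadjusted p under 0.05 (1.22% of all genes were) and a median of 0.09. The study's lists of genes positively and negatively correlated with CD150, chosen on these samples, had median departures of 0.07 (121 genes) and 0.01 (95 genes) beside median straight-line changes of 0.91 and -0.65. The remaining lists, among them interferon-stimulated, chaperone, immediate early, p53, glycolysis and cholesterol genes, had median departures between -0.16 and 0.19 and at most 1 member per direction at an unadjusted p under 0.05 in those written by hand. S100a8, a neutrophil protein, was at 1.46 to 49.8 FPKM in the extremes and 13.2 to 53.5 in the middle, highest in mouse 2 in every bin (departure 0.97 ± 0.36, unadjusted p = 0.0207).

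The comparison of old with young HSCs did not use the bins. Of the 24 named genes 6 were called there (adjusted p under 0.05, against 6.07% of 11279 genes tested), 4 higher and 2 lower in old HSCs (364 and 321 of the 11279 were). The 24 were chosen to average 5 FPKM or more over the bins, all of them from old HSCs. Genes low in young HSCs can meet that condition through the old side. The share over all genes is therefore not a like background, and no excess is read from it. Alcam was at 7.19 ± 1.5 FPKM in young and 22.7 ± 4.35 in old HSCs (SD, n = 3; log2 difference 1.53, adjusted p = 0.00189 by limma). Agtr1a was at 0.292 ± 0.243 and 5.41 ± 1.15 FPKM (2.31, adjusted p = 0.000556), and Cd74 at 316.6 ± 76.8 and 571.2 ± 169 (0.84, adjusted p = 0.0257). Sbspon rose from 0.612 ± 0.534 to 47.5 ± 9.31 FPKM (4.95, adjusted p = 2.47e-06). Kif15 fell by 1.47 on the log2 scale (adjusted p = 0.0125) and Uhrf1 by 1.13 (adjusted p = 0.0134). Brd2 (18.6 ± 2.43 and 16.2 ± 4.79 FPKM) and Fgd4 (5.84 ± 1.05 and 5.01 ± 1.29) were not called. The titles of the old libraries without a CD150 split name replicates and not mice, so whether they share animals with the bins is not known. Their mean stood at 0.322 (Kif15) to 1.32 (Sertad1) times the mean of the 4 bins for the 24 genes.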

How the data were processed

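Bulk RNA-seq of 12 libraries of CD150 bins and of 6 libraries of young and old HSCs was used. Per the methods text and labels, full-length cDNA libraries were trimmed with Trim Galore, aligned to mm10 with HISAT2 2.0.0 and handled with SAMtools 1.14. HTSeq 0.12.4 (without strand) and DESeq2 1.22.2 served the authors' tests, and Cufflinks is listed without a role. The authors deposited FPKM values, 1 table of 21835 rows per library; 10 rows that repeat a symbol were summed, leaving 21825. Without strand, overlapping and antisense genes cannot be told apart. Read totals are not given and whole reads were not recovered from the values; relative depth came from the ratio of low values (95.5% of 66 library pairs were within 0.1 log2 of the ratio through other libraries). All 13 mitochondrial genes are listed at 0, so 0 is not read as absence.

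The 11673 genes whose mean reached 1 FPKM in any bin were fitted as log2(FPKM + 1) by limma 3.58.1 in R 4.3.3 with a mean-variance trend, 4 group means and the mouse as block (6 residual degrees of freedom), without a fold threshold. Fold changes on this scale understate those of low genes. Adjusted p-values are Benjamini-Hochberg over all genes tested. Intervals are at 95%. The titles name the mice: deviations from group means had a median r of 0.0797 within and -0.0295 between mice. For the bins, the p-values measure how bin differences varied from mouse to mouse over 3 animals, after the level of each mouse was removed. Old and young HSCs were fitted without a block, and their p-values measure the spread between the 3 libraries of each group. In both fits limma drew the variance of each gene toward the trend over genes. An exact permutation of the bins within mice was computed for single values but is not used, since the sort orders the bins and a gradient widens its null. The scripts were tested on simulated data with known departures.

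The named genes are up to 12 per direction by unadjusted p (called ones first, then genes of at least 5 FPKM with 1 sign in all 3 mice), the sort antigens, the genes that the study ties to CD150 or lists or cites as candidate surface markers, the called or lowest-p members of lists, and HSC and progenitor markers such as Procr, Flt3 and Vwf. Some genes that this rule names are not reported here. The comparison, members and 51 lists were chosen with earlier results of these data known; 31 list symbols were renamed by RefSeq synonyms (GRCm38.p6, also the source of coordinates). The transplanted and single-cell samples were not used here.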

Additional observations from a re-analysis of the deposited data

Results flagged for a closer look

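In 86 groups of 6 libraries (43 named genes, middle and extreme), 5 had a library whose gap to the nearest of the others took a larger share of the whole range on the log2 scale (the ratio) than Dixon's 95% limit for 6 values. Chance passes that limit in about 1 of 20 groups drawn from a common normal population. The groups here join bins of unlike CD150 level from the same mice, so that rate need not hold for them. Of the 5 flagged libraries, 3 were G1 of mouse 3 or G2 of mouse 2. Kit was at 162.5 FPKM in G1 of mouse 3 against 51.7 to 71.0 in the other extreme libraries (ratio 0.725), and Ly6a at 1028 against 604.4 to 718.7 (ratio 0.674). Ncoa3 was at 10.0 FPKM in G2 of mouse 2 against 4.76 to 6.19 in the other middle libraries (ratio 0.661). Capsl was low in G3 of mouse 2, at 5.62 FPKM against 9.09 to 11.9 (ratio 0.632), and Tm4sf1, a candidate surface marker, was low in G2 of mouse 1, at 59.5 FPKM against 78.2 to 82.8 (ratio 0.825).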

How the results depend on the processing

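The counts of 0 departures, higher or lower, were kept under each alternative except when every gene above 0 in any library was tested, where 1 gene, Sult4a1 (at most 1.28 FPKM), was higher in the middle. That setting also gave 1 call for the cubic term, 1 for G3 alone (Sult4a1 in both) and 5 for the straight line, and left 2 of the 24 named genes called between old and young HSCs. Without G1 of mouse 3 and G2 of mouse 2 the straight line had 192 calls, the cubic term 1 (H2ac15), G2 alone 1 (Ccnd2) and G3 alone 1 (Vwf). Array weights gave 225 straight-line calls and 1 for G3 (Vwf), and quantile normalization 46 straight-line calls. Omitting mouse 1, 2 or 3 whole left 0, 1 and 7 straight-line calls. Leaving out 1 library at a time gave 2 to 41 straight-line calls: 8, 8 and 32 without G1 of mouse 1, 2 and 3, 14, 41 and 28 without G2, 8, 9 and 9 without G3, and 3, 2 and 2 without G4. It gave 0 to 1 cubic and 0 to 1 G3 calls (Prodh2 in both, without G3 of mouse 2), and 3 (without the second young library) to 6 of the named genes called between old and young HSCs. The Slamf1 departure was -0.403 on the FPKM scale, an alternative added after seeing the data. The titles pair the samples by mouse; without the replicate block there were 33 straight-line calls and 0 departures in either direction, with the block as a random effect 31 and 0. In both of these fits Ctla2a, Aldh3a1 and Klrb1c lost their straight-line call, with the random effect Tff2 did too, and the rest of the 26 kept theirs. Of 1143 recomputed log2 departures of named genes 44 changed sign, in 13 genes that were not among the 24, and none became called. The 24 were chosen for low p and a common sign, and the other named genes were not. Quantile normalization also took the uniform sign from the ribosomal protein genes (42 of 81 below 0, chosen as a check after seeing the data), while the medians of the HSC identity and G2/M lists stayed above 0 under each scaling (0.11 to 0.18 and 0.04 to 0.19).

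With 3 mice, departures under about 1.5-fold were within the error of many genes, a pseudocount of 1 compresses low genes, and the equal steps are ranks. What set G1 of mouse 3 and G2 of mouse 2 apart was not tested.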

Other observations

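With G1 of mouse 3 and G2 of mouse 2 set aside, the lowest adjusted p-value of a departure over 10 libraries was 0.257, reached by Vwf (higher) and Ccnd2 (lower). Ccnd2 encodes cyclin D2, which drives entry into the cell cycle. It was at 517.2 and 477.2 FPKM in G1, 335.8 and 320.4 in G2, 498.0, 452.0 and 434.0 in G3, and 573.0, 430.4 and 532.7 in G4 of these libraries. G2 was below all the others, while G3 overlapped with the extremes, and the libraries set aside had 465.5 (G1) and 472.0 (G2). Its departure was -0.40 ± 0.06 over the 10 libraries and -0.27 over 12 (unadjusted p = 0.0468), and G2 alone against the extremes passed the test over the 10 libraries (log2 difference -0.67, adjusted p = 0.0386 by limma). A gradient also enters that test, which is not 0 on a straight line.

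Of the 12 genes with the lowest unadjusted p in each direction over the 10 libraries (at least 5 FPKM), 3 of the 12 higher (Alcam and Brd2 among them) and 2 of the 12 lower (Cd74 and Fgd4) were also among those named over the 12 libraries. Ocrl, a phosphoinositide phosphatase, was at 16.6 and 19.8 FPKM in G1, 28.7 and 25.8 in G2, 24.6, 36.7 and 20.0 in G3, and 22.7, 27.8 and 19.1 in G4. Acly, the enzyme that makes cytosolic acetyl-CoA, was high in 1 mouse: in mouse 2 it was at 64.6 FPKM in G1, 43.6 in G2, 108.4 in G3 and 80.7 in G4, and in the other mice at 12.7 to 25.4 FPKM. Rgs1, a regulator of G-protein signaling, was at 393.4 and 460.9 FPKM in G1 and at 234.1 to 397.7 in the other 8 of these libraries, with overlap through mouse 2.

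Among genes of low level, Vpreb1, part of the surrogate light chain of B-cell precursors, was at 2.37 to 7.55 FPKM in the middle and 0.157 to 4.63 in the extremes (departure 0.90 ± 0.25, unadjusted p = 0.004), while of the other B cell markers Cd79a, Pax5 and Ebf1 stayed under 1 FPKM in all libraries, Cd79b was at 41.7 to 61.5 FPKM and Fcrla at 2.44 to 6.81 FPKM.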
